A study of Mus musculus with 8 samples.

Results

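The transcriptomes of salivary gland tumors were compared with those of the salivary gland tissue next to such tumors in a mouse model of mucoepidermoid carcinoma (MEC). The samples were chosen by their titles and comprised 4 tumors (T1 to T4) and 2 tumor-adjacent glands (NAT1 and NAT2), which are 6 of the 8 samples of the series. The remaining 2 samples, glands of nontransgenic littermates (N1 and N2), were kept out of the test and used as a background level. T1 and NAT1 came from the same mouse, as did T2 and NAT2 by the titles and the study, whereas T3 and T4 came from other mice with no adjacent gland among the samples. Tumors and adjacent glands therefore share a genotype: the mice carried LSL-CM, a FLAG-tagged human CRTC1-MAML2 cDNA behind a LoxP-flanked stop cassette under the ubiquitous CAG promoter, together with MMTV-Cre, which is active in salivary duct cells. LSL-CM was injected into FVB/J zygotes. By the study, the littermates carried MMTV-Cre but lacked the LSL-CM transgene. The study worked mainly with mice of 1 founder line. The labels name no treatment and give neither age nor sex. The source description of NAT2 names tumor 1, and that of T2 names adjacent tissue. Both samples were placed by title and tissue label. By its profile T2 lay nearer to the other tumors than to either adjacent gland.

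MEC is the most common salivary gland malignancy and mixes mucin-secreting, epidermoid and intermediate cells. The CRTC1-MAML2 fusion joins the CREB-binding domain of the coactivator CRTC1 to the transactivation domain of MAML2, a Notch coactivator. The chimeric protein acts in the nucleus through CREB, a transcription factor that binds the cAMP response element (CRE) in promoters. The normal gland, by contrast, is built of acinar cells that secrete saliva and of ducts that modify and carry it. A bulk tumor and a bulk gland hold different mixtures of cells, and in such samples fewer cells of a type and less RNA per cell cannot be told apart.

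Each RNA sample was hybridized to 1 single-color Agilent array holding lncRNA and mRNA probes, and all arrays lay on 1 slide. Signals are given as scaled log2 signals, meaning log2 intensity minus the 75th percentile of the same array, so a value of 0 is the 75th percentile and each unit is a doubling. Before scaling, that percentile was lower on the adjacent glands (log2 values of 7.48 and 7.56) than on the tumors (7.73 to 8.42). Of the probes, 64.2% and 66.0% were well above background on the NAT arrays and 70.0% to 76.3% on the T arrays. No spot was saturated. A probe had to rise well above background on 2 or more of the 6 arrays to be tested, which left 46659 of 60930 for limma. A probe was called when its fold change was at least 2 and its false discovery rate (FDR, the Benjamini-Hochberg adjusted p) was at most 0.05. Apart from control probes, the files used here pair only 15 probes with a gene, by RefSeq accession. The markers of acinar, duct and other cells could therefore not be read, and the labelled tissues were not checked against them.

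The 15 named genes are mostly housekeeping genes used as references in expression work, and 6 of them were called, all higher in the tumors. They were Rpl13a, Gusb, Hsp90ab1, Actb, Tbp and Hprt, with differences between 1.33 and 3.30 on the log2 scale. None of the 15 was called lower. Over all tested probes, 34.9% were called, 20.1% higher and 14.8% lower in T than in NAT, so the share of the 15 that was called is near that of the whole array. The median difference of the 15 was 0.99 against 0.25 over all tested probes.

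Promoter windows of the called genes are shown because the fusion is known to act through CREB. The windows are from RefSeq on GRCm38.p6 and run from 250 bases before to 50 bases after the start of the gene. Actb and Hsp90ab1 had no entry in the promoter set used here. Capitals mark the CRE, either the full site TGACGTCA or its shorter core TGACG, read on both strands (TGACG or CGTCA). Each full site also holds the core on each strand.
Gusb (chr5:130003000-130003299, minus strand): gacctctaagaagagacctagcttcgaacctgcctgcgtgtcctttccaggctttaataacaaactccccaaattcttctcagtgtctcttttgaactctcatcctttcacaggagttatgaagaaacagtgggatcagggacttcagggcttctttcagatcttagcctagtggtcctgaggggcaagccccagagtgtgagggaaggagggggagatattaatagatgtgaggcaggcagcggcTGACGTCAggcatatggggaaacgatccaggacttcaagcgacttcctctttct
Rpl13a (chr7:45128696-45128995, minus strand): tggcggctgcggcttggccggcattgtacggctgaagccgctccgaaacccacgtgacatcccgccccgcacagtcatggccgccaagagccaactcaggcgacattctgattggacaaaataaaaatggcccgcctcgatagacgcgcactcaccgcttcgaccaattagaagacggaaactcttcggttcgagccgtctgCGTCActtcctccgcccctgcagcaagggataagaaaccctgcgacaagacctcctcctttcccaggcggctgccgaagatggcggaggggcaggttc
Tbp (chr17:15499638-15499937, plus strand): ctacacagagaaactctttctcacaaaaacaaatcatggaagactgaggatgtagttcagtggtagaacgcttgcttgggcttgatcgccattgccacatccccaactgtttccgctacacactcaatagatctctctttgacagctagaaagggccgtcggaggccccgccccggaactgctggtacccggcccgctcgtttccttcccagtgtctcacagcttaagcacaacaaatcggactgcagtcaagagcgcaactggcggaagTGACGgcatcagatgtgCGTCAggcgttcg
Hprt (chrX:52987828-52988127, plus strand): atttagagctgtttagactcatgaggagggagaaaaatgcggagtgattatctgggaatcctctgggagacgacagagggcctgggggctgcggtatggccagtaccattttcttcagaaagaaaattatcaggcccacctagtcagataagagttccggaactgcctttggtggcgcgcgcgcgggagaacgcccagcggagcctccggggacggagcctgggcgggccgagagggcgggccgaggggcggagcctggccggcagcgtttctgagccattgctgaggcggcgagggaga

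The Gusb window held the full site, which began 4 bases before the start of the gene. A full site was found in 588 of 32851 promoter windows of the same length, or 1.79%. The Rpl13a window held a core 48 bases before the start, the Tbp window held cores at 21 and 38 bases after it, and the Hprt window held none. Cores lay in 20.8% of all windows. Among named genes with a window, 3 of 4 that were called and 4 of 9 that were not called held a core (B2m, Gk, Ppia and Tfrc in the second set). These matches describe letters in a window and were not tested for binding.

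Rpl13a, on chromosome 7 (45125563 to 45128745), encodes a protein of the large ribosomal subunit. Its scaled log2 signal was 5.61 on NAT1 and 3.78 on NAT2, against 8.20, 7.52, 8.09 and 8.16 on T1 to T4. All tumors lay above both adjacent glands, and the glands were much farther apart (SD 1.29, n = 2) than the tumors (SD 0.32, n = 4). The difference was 3.30 ± 0.52 (SE), or 9.86-fold, with a limma FDR of 0.0043. Without NAT2 it was 2.39 and without NAT1 4.22. Fits of this kind hold a single gland, so gland spread is not measured in them and only the difference is given. The littermate glands read 3.38 and 3.45, close to NAT2.

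Gusb, on chromosome 5 (129989011 to 130003049), encodes the lysosomal enzyme beta-glucuronidase. It read 2.37 and 1.40 on the NAT arrays and 4.99, 4.43, 4.93 and 5.72 on T1 to T4. The lowest tumor, T2, was 2.06 above the highest adjacent gland. The difference was 3.13 ± 0.45 (SE), or 8.78-fold, with a limma FDR of 0.0031. On the littermate glands the signal was 1.41 and 0.90.

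Hsp90ab1, on chromosome 17 (45567778 to 45573261), encodes the cytosolic chaperone HSP90-beta. The signal was 4.55 on NAT1 and 3.27 on NAT2, and 7.14, 6.66, 6.56 and 6.49 on T1 to T4. T1 was the highest tumor, and the remaining tumors lay within a narrow band. The difference was 2.80 ± 0.42 (SE), or 6.97-fold, with a limma FDR of 0.0036. Without NAT2 it was 2.16 and without NAT1 3.44. The littermates read 3.62 and 2.31.

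Actb, on chromosome 5 (142903115 to 142907976), encodes cytoskeletal beta-actin. It read 6.12 on NAT1 and 4.39 on NAT2, and 7.36, 7.20, 7.14 and 7.02 on T1 to T4. NAT1 stood between the tumors and NAT2, and NAT2 lay near the littermates, which read 4.34 and 4.33. The difference was 1.92 ± 0.48 (SE), or 3.78-fold, with a limma FDR of 0.021. Without NAT2 it was 1.06, and without NAT1 it was 2.78. Actb was not called by the methods' t-test after Benjamini-Hochberg (FDR 0.075).

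Tbp, on chromosome 17 (15499888 to 15517427), encodes the TATA-binding protein of the basal transcription machinery. It read 0.33 and 0.08 on the NAT arrays and 2.01, 2.05, 1.80 and 1.53 on T1 to T4. Here the adjacent glands were close to each other (SD 0.18, n = 2). The difference was 1.64 ± 0.29 (SE), or 3.11-fold, with a limma FDR of 0.0065.

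Hprt, on chromosome X (52988078 to 53021660), encodes an enzyme of purine salvage. Its signal was 6.27 and 5.62 on the NAT arrays and 7.36, 7.10, 7.31 and 7.34 on T1 to T4. The tumors spread little (SD 0.12, n = 4). The difference was 1.33 ± 0.30 (SE), or 2.51-fold, with a limma FDR of 0.015. Without NAT2 it was 1.00. With quantile normalization it was 0.96, below the 2-fold limit.

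**Figure D1:**
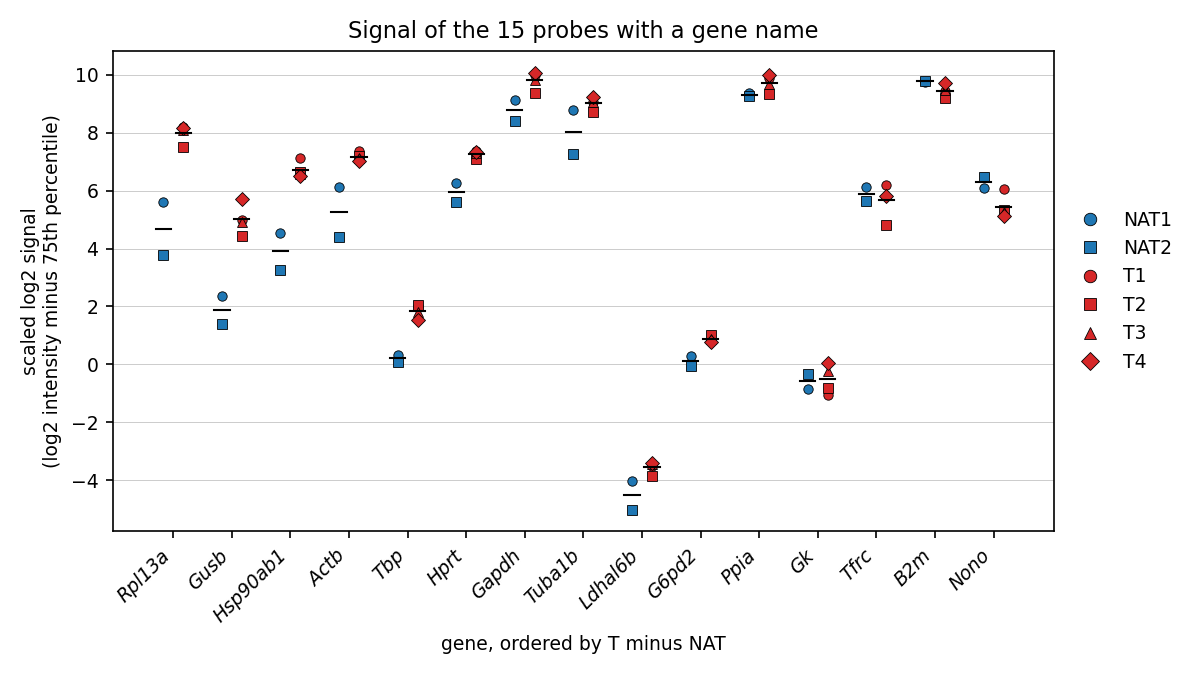
Scaled log2 signal (y axis, log2 intensity minus the array's 75th percentile) of the 15 named probes (x axis, ordered by T minus NAT). Points are single arrays, blue for NAT and red for T, and black bars are group means. Rpl13a, Gusb and Hsp90ab1 have the widest gaps between T and NAT, and NAT1 lies above NAT2 for 12 of the 15 genes. Levels of different probes are not comparable with each other.

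Because T1 and NAT1, and T2 and NAT2, are tissues of the same mice, the fit was repeated with the mouse as a block. Rpl13a (3.17, FDR 0.028), Gusb (2.83, FDR 0.028) and Hsp90ab1 (2.99, FDR 0.028) were called in it. Actb (2.02, FDR 0.082), Tbp (1.82, FDR 0.068) and Hprt (1.28, FDR 0.144) were not. That fit rests on the 2 matched pairs alone, since T3 and T4 have no gland in their block. With the pairing crossed (T1 with NAT2, T2 with NAT1), Tbp was called (1.82, FDR 0.049). Actb (FDR 0.076) and Hprt (FDR 0.127) were not called with it. With the mouse as a random term, which uses all 6 arrays, Actb (1.91, FDR 0.025), Tbp (1.62, FDR 0.0081) and Hprt (1.33, FDR 0.018) were called. The within-mouse correlation estimated for that fit was -0.094. The random-term fit therefore lay close to the fit with no block and does not restore the calls lost in the blocked fit. Within the mice, T1 minus NAT1 was 2.60 for Rpl13a, 2.62 for Gusb, 2.59 for Hsp90ab1, 1.24 for Actb, 1.67 for Tbp and 1.08 for Hprt. T2 minus NAT2 was 3.75 for Rpl13a, 3.03 for Gusb, 3.38 for Hsp90ab1, 2.80 for Actb, 1.97 for Tbp and 1.48 for Hprt. All 6 genes were higher in the tumor of both mice, and each difference was larger in the second mouse.

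The other 9 named genes were not called. Among the metabolic genes, Gapdh, a glycolytic enzyme, read 9.15 and 8.40 on NAT and between 9.37 (T2) and 10.08 (T4) on the tumors. All tumors were above both glands for this probe, with a difference of 1.05 and a 95% interval of 0.21 to 1.88 (limma FDR 0.056). Control probes to the ends of the same mRNA, described below, differed by 1.92 (3′) and 4.04 (5′) and were not in the test. The named probe was past the cutoff under several other settings, for example at 1.18 with quantile normalization (FDR 0.012). Its difference was 1.42 without NAT1 and 0.67 without NAT2. Ldhal6b, related to lactate dehydrogenase A, differed by 0.97 (interval 0.12 to 1.82) but was well above background on only 1 NAT array. Without NAT1 it was 1.47, and without NAT2 it was 0.48. G6pd2, a glucose-6-phosphate dehydrogenase, differed by 0.77 (0.13 to 1.41). Gk, glycerol kinase, differed by 0.07 (-0.86 to 1.01), and its T and NAT arrays overlapped.

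Tuba1b, an alpha-tubulin, differed by 0.99 (interval -0.08 to 2.06). NAT1 at 8.79 lay among the tumors, which ran from 8.70 to 9.24, while NAT2 was at 7.25. The difference was 0.22 without NAT2 and 1.76 without NAT1. Within the second row of the slide, which holds NAT2 and not NAT1, it was 1.74. Ppia, the prolyl isomerase cyclophilin A, differed by 0.41 (-0.29 to 1.12). B2m, the light chain of MHC class I, read 9.77 and 9.78 on NAT and 9.43, 9.19, 9.46 and 9.72 on T1 to T4. Every tumor was below both glands, but the difference was only -0.32 (-0.99 to 0.34). Tfrc, the transferrin receptor, differed by -0.22 (-1.24 to 0.81), and T2 at 4.82 was the lowest of the 6 arrays.

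Nono, an RNA-binding protein of paraspeckles, had the lowest difference of the 15, -0.84 (interval -1.69 to 0.01, limma FDR 0.108). With quantile normalization it was -1.21 and called (FDR 0.049). It read 6.10 and 6.48 on NAT and 6.07, 5.34, 5.28 and 5.11 on T1 to T4, so T1 was level with NAT1. Each named probe is printed 20 times on an array, and the repeat spots of Nono did not give 1 value on the adjacent glands. Their SD within an array was 0.95 on NAT1 and 1.01 on NAT2, against 0.05 to 0.10 on the tumors. On the littermates it was 1.26 and 0.92. Spots at the same position were alike on NAT1 and NAT2. For example, the spot at row 15, column 97 read 4.04 and 4.51, and that at row 309, column 60 read 7.13 and 7.53. The cause was not tested. For Rpl13a, Gusb and Actb the SD of repeat spots was at most 0.09 on the T and NAT arrays. Repeat spots were also wide for the dim probes of Ldhal6b (0.38 to 0.76 over those 6 arrays) and Gk (0.07 to 0.49), on tumors as well as glands. Across the 15 genes, the groups did not overlap for 11, a state reached by 56.1% of all tested probes.

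The scaling sets how the named genes read. Each fold change above is relative to the array's 75th percentile. With the average of the 15 named probes as the reference instead, their differences sum to 0 by construction and all shift down by the same amount. Rpl13a (2.17), Gusb (2.00) and Hsp90ab1 (1.67) were still called higher. Actb (0.79), Tbp (0.51) and Hprt (0.19) were not, and B2m (-1.46), Nono (-1.98) and Tfrc (-1.35) were called lower. With no scaling, by contrast, Gapdh (1.56), Tuba1b (1.505), Ldhal6b (1.49) and G6pd2 (1.28) were called higher as well. The order of the genes is the same under these settings, since each subtracts 1 number per array or none.

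Transcript ends moved with the groups as well. The array holds probes to the 3′ and 5′ ends of the mouse Gapdh and Pgk1 mRNAs, the latter encoding another glycolytic enzyme. For Gapdh, the 5′ minus the 3′ log2 signal was -2.38 on NAT1 and -2.89 on NAT2, and -0.42, -0.34, -0.51 and -0.80 on T1 to T4. For Pgk1 it was -7.13 and -7.56 on NAT and -4.62, -4.46, -4.93 and -5.78 on T1 to T4. The 5′ ends were thus dimmer relative to the 3′ ends on both adjacent glands than on any tumor. The littermate glands read lower still, at -3.07 and -3.58 for Gapdh and -7.70 and -8.48 for Pgk1. The T minus NAT difference of Gapdh was 1.92 at the 3′ end and 4.04 at the 5′ end, and that of Pgk1 was 2.96 and 5.36. The named Gapdh probe, by comparison, differed by 1.05, so the size of the Gapdh difference depended on the probe. Where in the transcript the named probes lie was not used here, and the part of this difference in the results was not tested.

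Over the whole array, limma called 16278 probes, 9366 higher and 6912 lower in the tumors. The median log2 difference of the called probes was 2.04 upward and -2.04 downward. Of those higher, 4835 were at least 4-fold and 707 at least 16-fold up. Of those lower, 3568 were at least 4-fold and 883 at least 16-fold down. At least 64-fold were 125 of the higher and 182 of the lower probes. These classes are not comparable between directions, since more of the higher calls have only a bound on the dim side and the scaling shifts both. The T and NAT arrays did not overlap at 16273 of the called probes, against 56.1% of all tested.

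The split between directions depended on the scaling. It was 57.5% higher as reported, 50.6% with quantile normalization, 49.7% in the deposited log2 table, 78.9% with no scaling and 14.2% with the average of the named probes as the reference. The median over all tested probes, 0.25 as reported, was 0.77 with no scaling and -0.88 with the named probes. With the mouse as a block the count fell to 7260 (4128 higher, 3132 lower), of which 6779 were among the 16278. Fits without NAT1 or without NAT2 hold a single gland, so their spread is that of the tumors alone.

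**Figure D2:**
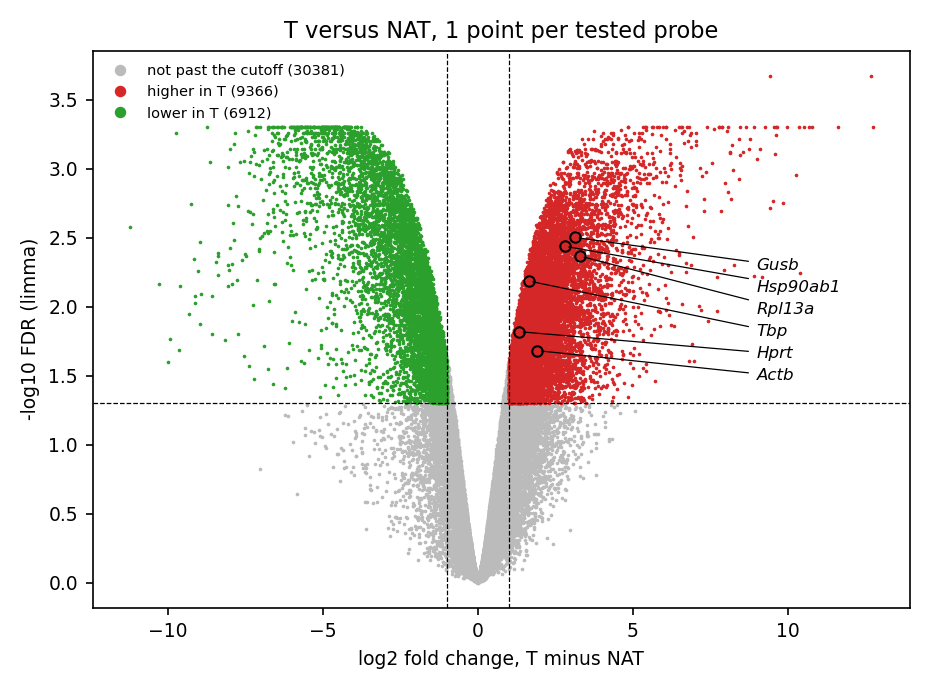
Each point is 1 of the 46659 tested probes, with the log2 difference T minus NAT on the x axis and -log10 of the limma FDR on the y axis. Dashed lines mark the 2-fold and 0.05 limits, and circles mark the 6 named genes that were called. The 9366 red and 6912 green points are the called probes, and Rpl13a and Gusb are among the 1845 higher calls that reach 8-fold.

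By the rule for probes with no gene name, the widest gaps between the groups were taken among called probes that every one of the 6 arrays detected well above background. The probe ASMM10P052355 read -2.21 and -2.75 on NAT and 7.77, 8.72, 9.18 and 7.51 on T1 to T4. It was 10.78 ± 0.52 (SE) higher in the tumors on the log2 scale (limma FDR 0.00049), and the littermates read -2.38 and -4.22. The probe ASMM10P032584 was 10.70 ± 0.66 higher, with tumors between 8.55 and 9.04 and glands at -3.21 and -0.64. Both were below the 75th percentile on both adjacent glands and far above it on every tumor.

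On the lower side, ASMM10P017236 read 5.27 and 5.60 on NAT and -3.28, -2.64, -0.87 and -2.90 on T1 to T4. Its log2 difference was -7.86 ± 0.66 (SE), and T3 kept more signal than the other tumors. The second, mouselincRNA0543+_P1, carries the name of a mouse long intergenic noncoding RNA (lincRNA). It read 5.38 and 5.51 on NAT, 5.40 and 4.99 on the littermates, and -1.75, -1.08, -0.69 and -1.14 on T1 to T4. Its difference was -6.61 ± 0.35 (SE; limma FDR 0.00049). The 4 gland samples thus sat within a narrow band for it, and all tumors sat far below.

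Part of the contrast lay at the limit of detection. In 2407 probes the signal was well above background on all T arrays and on neither NAT array, and in 497 it was so on both NAT arrays and on no T array. Among called probes, 2279 of the 9366 higher (24.3%) were not well above background on either NAT array, and 491 of the 6912 lower (7.10%) were not on any T array. For these only a bound exists on the dim side. The filter let a probe in through any 2 of the 4 T arrays, but through NAT alone only when both NAT arrays detected it. The counts of the directions are therefore not comparable. Restricted to the 34833 probes detected well above background on each of the 6 arrays, 6245 of the called probes were higher and 5541 lower.

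The littermate glands had no part in the test, but the called probes were chosen with the same T arrays, so the following counts are a description. All tumors were above both N arrays at 9008 of the 9366 higher probes (96.2%) and below both at 6808 of the 6912 lower probes (98.5%). Over all tested probes with a value on each array, all tumors were above both N arrays at 37.3% and below both at 28.4%. Among the 100 probes brightest on the N arrays, 23 were lower in T than in NAT and 0 were higher, with a median difference of -0.57. Over all tested probes 14.8% were lower and 20.1% higher. The 100 were chosen for high signal on gland arrays, so their split is a description and not comparable with that of the whole array. These 100 probes have no gene name here.

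Tumors resembled each other more than they resembled either gland. Pairs of tumors differed by at least 2-fold at 5735 (T1 and T3, 12.3%) to 12043 (T2 and T4, 25.8%) of the tested probes. Tumors differed from NAT1 at 42.2% to 48.0% and from NAT2 at 54.5% to 58.5%. T2 in particular differed from the other tumors at 18.5% to 25.8%, from NAT1 at 42.2% and from NAT2 at 56.1%. The glands themselves differed from each other at 11244 probes (24.1%), which is as many as the more distant tumor pairs.

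**Figure D3:**
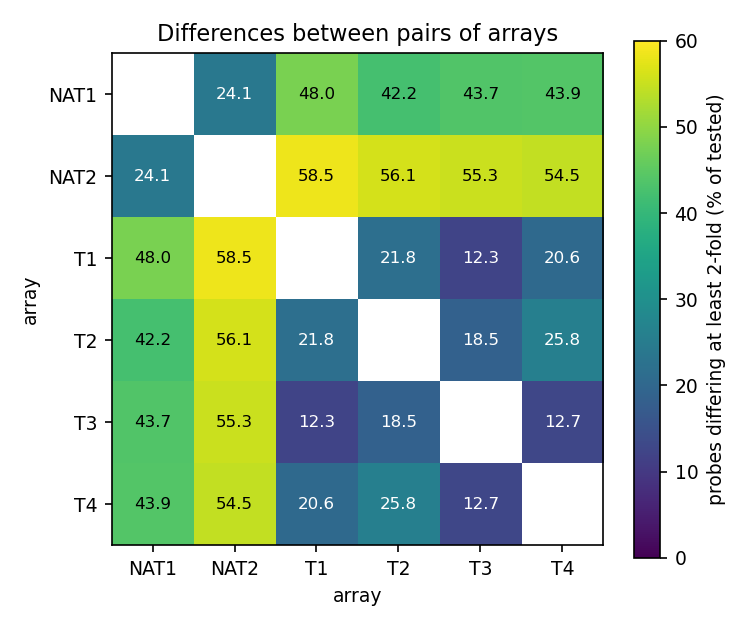
Share of the 46659 tested probes (color and printed percent) that differed by at least 2-fold between each pair of arrays (both axes). Tumor pairs range from 12.3% to 25.8%, tumor and gland pairs from 42.2% to 58.5%, and NAT2 is farther from every tumor than NAT1.

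The adjacent glands were not equally far from the tumors. NAT1 was nearer to the tumor mean than NAT2 at 73.9% of the probes called higher and at 87.8% of those called lower. For the 6 called named genes NAT1 was also the higher gland every time. Among the tumors, T1 was the highest at 44.1% of the probes called higher, with 22.1% for T2, 14.3% for T3 and 19.6% for T4. T2 was the lowest tumor at 44.9% of those called lower, with 33.2% for T1, 9.91% for T3 and 12.1% for T4. Among the called probes the tumors therefore did not contribute evenly to the extremes, and T3 did so least in both directions. These shares for tumors and glands were not computed over all tested probes, so nothing particular to the called probes is read from them. The range over the tumors was at least 4-fold at 1161 of the 9366 higher probes (12.4%) and at 516 of the 6912 lower probes (7.47%). The median SD per probe was 0.40 over the 4 tumors and 0.38 over the 2 glands.

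Each tumor on its own showed the contrast. Against the NAT mean, T1 was at least 2-fold higher at 14108 probes and lower at 10386, T2 at 12971 and 9705, T3 at 13580 and 9086, and T4 at 14001 and 8455. The tumors with no matched gland, T3 and T4, were thus in the range of the matched ones for higher probes and somewhat below it for lower ones.

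Within the mice, T1 was at least 2-fold above NAT1 at 12641 probes and below it at 9757. T2 was above NAT2 at 14875 and below it at 11290. Both pairs rose at 8849 probes and both fell at 6406. Only the first pair passed 2-fold at 5604 probes and only the second at 9360. Across 46611 probes the differences of the 2 pairs correlated at r = 0.644, a description of these arrays, since probes are not independent replicates. Of the 9366 probes called higher, 7526 rose at least 2-fold in both mice, and of the 6912 called lower, 5653 fell at least 2-fold in both. The test used the same arrays, so these counts describe the calls and do not check them.

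The pairs disagreed at 1532 probes, and nearly all of these disagreed in the same way. In 1337 probes the signal was at least 2-fold lower in T1 than in NAT1 and at least 2-fold higher in T2 than in NAT2, against 195 probes with the reverse pattern. At 8-fold in each pair there were 236 and 1. The median scaled log2 signal of those 236 probes was 1.22 on NAT1 and 2.84 on T2, but -2.89 on NAT2 and -3.39 on T1. On the arrays that did not choose them it was -2.66 on T3, -2.03 on T4, -3.02 on N1 and -2.93 on N2. In 222 of the 236, both NAT1 and T2 were above all of the other 4 arrays of the comparison. None of the 1337 probes was called between T and NAT. Opposite pair differences force the T and NAT arrays to overlap, so this follows almost entirely from how the probes were chosen. The set was chosen by the pair differences, so its levels on NAT1, NAT2, T1 and T2 are a description. Over all tested probes, the deviations of NAT1 and T2 from their group means correlated at r = 0.25, and with only 2 NAT arrays that of NAT2 and T2 is its mirror, -0.25, by construction. T1 and T2 lay with the other tumors over the whole array, and the doubt is about what links NAT1 and T2. Shared tissue, shared handling and an exchange between mice cannot be told apart here, and the values within mice and the blocked fit hold only if the stated pairing does. The genes of these probes have no name here.

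**Figure D4:**
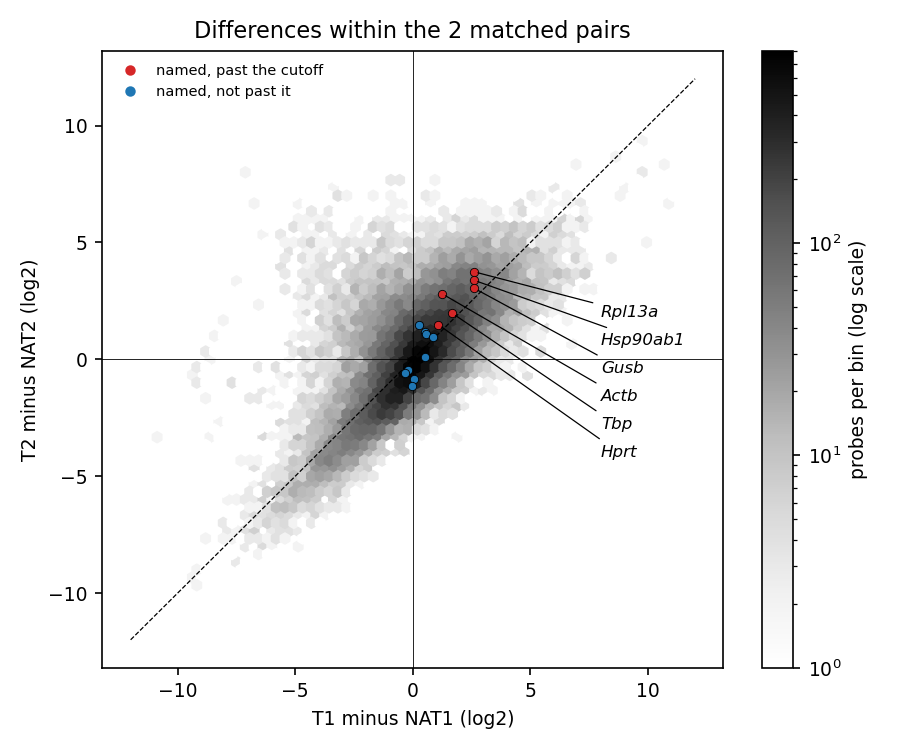
Difference T1 minus NAT1 (x axis, log2) against T2 minus NAT2 (y axis, log2) for the tested probes, with darker bins holding more probes on a log scale. Red points are the 6 called named genes and blue points the other 9, and the dashed line marks equal differences. A group of probes lies in the upper left, where T1 is below NAT1 and T2 is above NAT2 (1337 probes at 2-fold, against 195 in the lower right).

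Probes named as lincRNA lay lower than the array as a whole. Of 1018 tested, 42 (4.13%) were called higher and 260 (25.5%) lower in the tumors, against 20.1% and 14.8% of all tested probes, and the median difference was -0.41 against 0.25 over all tested probes. The 426 mouse lincRNA-named probes (17 higher, 109 lower, median -0.44) and the 592 named after human lincRNAs (25 higher, 151 lower, median -0.34) were alike in this. Their difference was below 0 at 66.7% and 64.5%, against 42.3% of all tested probes. The lincRNA median lay below that of all tested probes under all 26 settings run, by 0.23 to 0.85, but the signs depended on the setting. With no scaling both medians were above 0 (0.11 and 0.77) and the lincRNA calls were 131 higher and 165 lower. With normexp (-0.36 and -0.13) and with the named-probe mean (-1.54 and -0.88) both were below 0. With the mouse as a block, 2 were called higher and 125 lower. These probes were dimmer, with a median level of -2.66 against -1.46 over all tested probes, and the part of dimness in this was not tested.

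Among the called human-named probes detected on all 6 arrays, humanlincRNA0147+_P1 had the widest gap downward. It read 5.80 and 5.59 on NAT and -0.70, -0.63, 0.52 and -0.32 on T1 to T4, a difference of -5.98 ± 0.41 (SE; limma FDR 0.00049). The littermates read 6.07 and 6.48. Upward, 28 of the 42 called lincRNA-named probes were not well above background on either NAT array and were not ranked. Among the called ones detected on all arrays, the widest gap was 1.02 between the nearest arrays for humanlincRNA1972+_P1, which differed by 1.35 ± 0.30 (SE; limma FDR 0.014). It read -3.80 and -3.97 on NAT and -2.18, -2.47, -2.70 and -2.78 on T1 to T4, well above background on all 6 arrays.

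**Figure D5:**
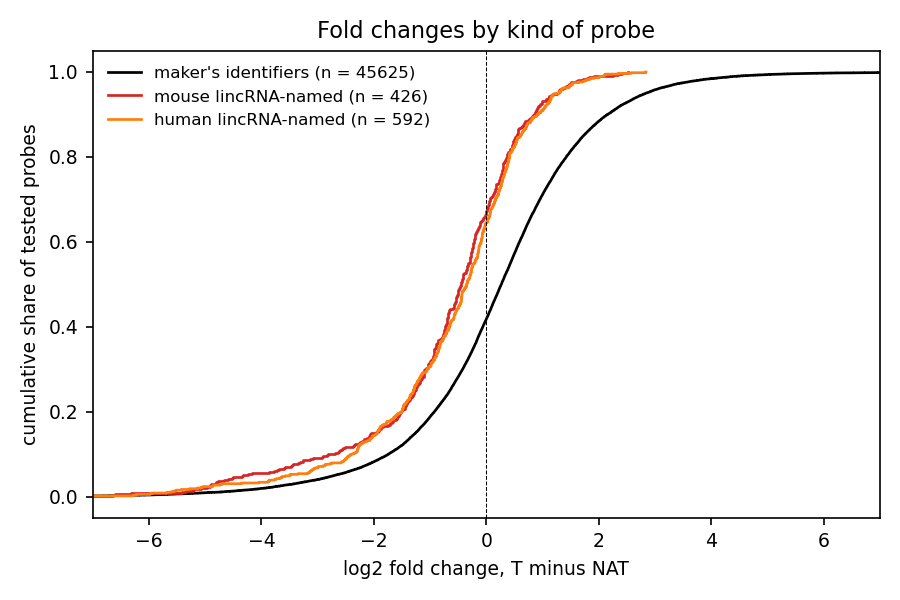
Cumulative share of tested probes (y axis) by log2 difference T minus NAT (x axis) for 426 mouse lincRNA-named probes (red), 592 human lincRNA-named probes (orange) and the 45625 probes under the maker's own identifiers (black). The lincRNA curves lie to the left of the black one, with medians of -0.44, -0.34 and 0.27.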

How the data were processed

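RNA of 4 tumors, 2 adjacent glands and 2 littermate glands was labelled by random priming and hybridized to Arraystar Mouse LncRNA arrays made by Agilent, all on 1 slide and in 1 scan. The deposited scanner files hold spot intensity on a linear scale, with background subtraction by Feature Extraction 11.0.1.1 and no scaling between arrays. A log2 table of the same arrays was deposited by the authors as well, and its normalization is not given in the sources used here. It served as an alternative.

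After removal of control spots and of spots flagged as outliers, log2 intensity was averaged per probe, and each array's 75th percentile was subtracted. Probes that rose well above background on 2 or more of the 6 arrays were fitted with limma 3.58.1 (lmFit, eBayes) in R 4.3.3, T against NAT with no covariate, with Benjamini-Hochberg adjustment over all 46659 probes. The cutoff (2-fold, FDR of 0.05) is that of the study's methods. Of the tested probes, 67 lacked a value on at least 1 array, and the fit used the remaining arrays. Figures were made with Python 3.11.15. The fit was checked on simulated data. The number of arrays limits the precision. Whether samples of a group came from separate extractions is not stated beyond the mouse, so p-values measure the spread between these samples.

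The titles and the study pair T1 with NAT1 and T2 with NAT2 by mouse. The correlation across probes of the arrays' deviations from their group means was -0.10 for T1 and NAT1 and -0.25 for T2 and NAT2. With 2 NAT arrays, the crossed pairs (0.25 for T2 and NAT1, 0.10 for T1 and NAT2) mirror these by construction and add nothing. The pairing rests on the titles and the study and not on these correlations, and the blocked fit is given where it changes a call.

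All 15 probes named by accession matched a symbol on GRCm38.p6 and are described. Of unnamed probes, the 2 highest and 2 lowest by the gap between the nearest arrays of the groups are given, among called probes detected on each of the 6 arrays. The 2 human-named lincRNA probes were added after the values were seen. Lists of CREB targets, cell cycle, RB pathway and EGFR genes and of cell type markers could not be matched to probes and were not run. The samples, probes and lists were chosen with earlier results of these data known. Alternatives were background correction, scaling, filters on dim probes, the block, the row of the slide, the methods' t-test, a stricter FDR and leaving out each array.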

Additional observations from a re-analysis of the deposited data

Results flagged for a closer look

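Rpl13a on T2 stood apart from the other tumors. Its scaled log2 signal was 7.52 on T2, below T1, T3 and T4, and the gap to the nearest of them was 83.1% of the range over the 4 tumors. T2 was nevertheless above both adjacent glands. This was 1 of 24 measures examined for such a gap, where chance alone gives about 1 in 20.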

How the results depend on the processing

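The count of 16278 called probes was within 1.5 times of the reported value except under these settings: 6722 without NAT2, 10486 with normexp background correction, 9545 with the matched arrays only, 7260 with a fixed replicate block, 9511 with the methods' t-test after Benjamini-Hochberg, 7532 at an FDR of 0.01, and 9144 with the pairing crossed (T1 with NAT2, T2 with NAT1), a check added after the data were seen. With the block as a random term it was 15537. Fits without NAT1 or NAT2, and within row 2 of the slide, hold a single gland. Their counts, here and for the lincRNA-named probes, rest on the spread of the tumors alone. Leaving out each array gave 6722 (without NAT2) to 16563 (without T2). Within row 2 of the slide, also added after seeing the data, it was 11127.

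Of the lincRNA-named probes, 302 were called as reported, 169 with normexp, 603 with the named-probe mean subtracted, 174 with the matched arrays only, 127 with the replicate block, 156 with the crossed block, 185 with the adjusted t-test, 141 at an FDR of 0.01, and 143 (without NAT2) to 292 (without T2) when arrays were left out, with 196 without T3.

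For the 15 named genes, 302 of 359 values under other settings kept direction and side of the cutoff, 16 lost the call, 20 gained it and 21 changed sign. Rpl13a, Gusb and Hsp90ab1 kept their call in all settings run for them. These counts and calls include the fits with a single gland, where only the tumors give the spread. Sign changes were all in uncalled genes. With the named-probe mean subtracted they were G6pd2 (-0.37), Gapdh (-0.086), Gk (-1.06), Ldhal6b (-0.16), Ppia (-0.72) and Tuba1b (-0.14). With no scaling they were B2m (0.19) and Tfrc (0.30), with quantile normalization B2m (0.0088), and with normexp Ldhal6b (-0.14). Gk, near 0, was also -0.021 with the median of tested probes, -0.34 with matched arrays only or either replicate block, -0.084 with the slide row as a block, -0.0078 within row 2, and -0.18 to 0.33 when arrays were left out. Tfrc was -0.46 to 0.071 when arrays were left out. The deposited log2 table gave no value for the named probes. The cause of these changes was not tested.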
